A study of Homo sapiens with 9 samples.

Results

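The early transcriptional response to loss of SOX9 protein was examined gene by gene, as the change in newly made RNA between 0h and 3h of treatment with dTAGV-1. Genes entered when their T>C reads, scaled to the library total as CPM, reached 1 CPM in at least 3 samples, which 12123 of the 18970 listed symbols did. Of these, 12037 were protein-coding and were tested, 86 of other or unmatched type entered an alternative alone, and 6847 symbols stayed below the level. The 6 libraries compared, of 9 in the series, came from cranial neural crest cells (CNCCs) grown out of the embryonic stem cell line H9, an established line, with a degron tag on SOX9. All cells carried the tag. Each group held 3 cultures, S9CC13_R6, S9CC47_R5 and S9CC47_R6, named for 2 clones of the tagged line (S9CC13 and S9CC47) and 2 differentiation batches (R5 and R6), so the samples pair by culture. The 3h group received 500 nM dTAGV-1, a small molecule that brings the tagged protein to a ubiquitin ligase. The labels name the same dose at 0h with no time elapsed, and give relative SOX9 levels of 100% at 0h and 0% at 3h. Both groups took up 100 uM 4-thiouridine (4sU) for 2 h in medium with DMSO or dTAGV-1 according to condition, and in the 3h group this began 1 h after dTAGV-1.

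In SLAM-seq, 4sU enters RNA made during the labelling, alkylation turns it into a base that is read as C, and a read with a T>C conversion therefore comes from RNA that was made recently. Reads without a conversion, called unconverted here, come from older RNA and also from new RNA that shows no conversion. SOX9 is a high mobility group transcription factor that acts in neural crest formation, and later in cartilage with its partners SOX5 and SOX6, where it switches on cartilage matrix genes such as COL2A1. CNCCs are migratory embryonic cells that give rise to most of the bone and cartilage of the face.

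Libraries of the 2 groups held 16955633 to 28782678 total reads, of which 3130673 to 5409139 were T>C reads. T>C reads made up 19.1% ± 0.852 (SD, n = 3) of a 0h library and 17.9% ± 1.82 (SD, n = 3) of a 3h library, a difference smaller than its SD across cultures of 1.78 percentage points (exact permutation test, two-sided p = 0.4, smallest possible 0.1). An exact sign-flip test within cultures gave p = 0.5 (smallest possible 0.25), with 2 of 3 cultures lower at 3h. The lowest share, 15.9%, belonged to S9CC13_R6 at 3h. The median T>C share over the genes tested was lower at 3h in each culture. It went from 26.4% to 22.6% in S9CC13_R6, 28.6% to 26.0% in S9CC47_R5 and 27.8% to 27.3% in S9CC47_R6. All 10 marker genes of neural crest mesenchyme lay at or above 1 CPM of total reads, and their summed level spanned 2612 to 2739 CPM at 0h and 2625 to 2756 at 3h. Markers of neuroectoderm and of endothelium and blood each summed to at most 2.47 CPM, and 2 of 8 pluripotency markers reached 1 CPM, with POU5F1 at 0 in the 0h libraries and NANOG at 0.0584 CPM there. The effect of SOX9 loss, of the compound itself and of the time in its medium cannot be told apart here, since cells without the tag were not analysed here. T>C reads that arise without label were not measured, and their part in any result was not tested.

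At 3h, 216 genes, or 1.79% of those tested, differed in T>C reads (DESeq2, adjusted p under 0.1). Of these, 121 (1.01% of all tested) were higher and 95 (0.789%) were lower. The unadjusted p-value was under 0.05 for 882 genes. Most changes were moderate: called genes had a log2 fold change of 0.66 in size at the median, and 45 exceeded 1, 29 of them falls and 16 rises. The direction was the same in 3 of 3 cultures for 210 of the 216, and for 177 the values at 0h and 3h did not overlap. Among all 12037 genes tested, these counts were 3169 and 1365. The 216 were called on these same values, so their agreement is no separate support. The balance of rises and falls rested on the scaling. With size factors from total reads in place of T>C reads, the median over all genes moved from -0.01 to -0.08, and 232 genes were called, 148 lower and 84 higher.

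**Figure D1:**
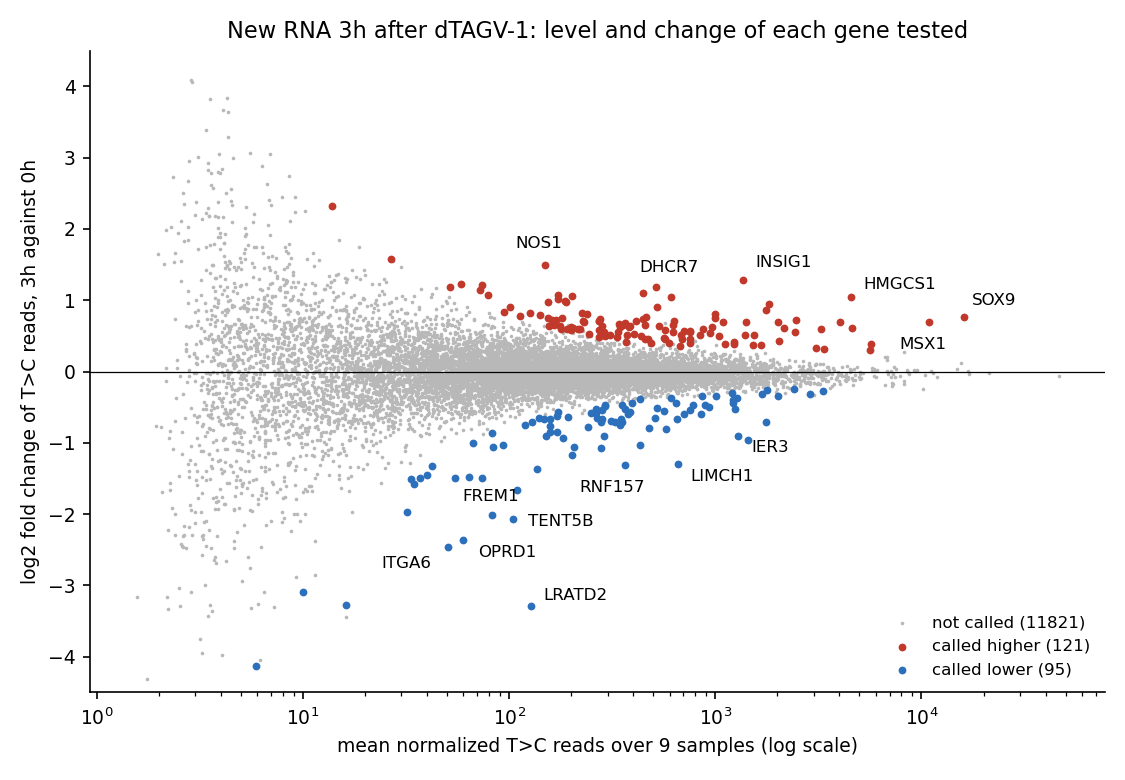
Each point is 1 of the genes tested, with its mean normalized T>C reads over 9 samples on the x axis (log scale) and its log2 fold change of T>C reads, 3h against 0h, on the y axis. Red points are the 121 genes called higher and blue points the 95 called lower, and 4 genes beyond 4.5 in size, 1 of them called, lie outside the axes. Of the genes described, LRATD2 lies at -3.29 among the falls, and NOS1 and INSIG1 at 1.50 and 1.29 among the rises.

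Calls differed in how firmly they held. Of the 216, 34 were called under each of the 11 other settings run gene by gene (edgeR, TMM factors, the culture as a replicate block with and without a surrogate variable, no surrogate variable, no covariates, only the 6 samples, total-read size factors, and each culture left out), and 35 were called without each culture in turn. Sterol genes made up 9 of the 34, among them INSIG1, HMGCS1, FDFT1, SQLE, CYP51A1, MSMO1 and DHCR7. Other rises among them were SOX9, MSX1, BMP4, FGF18, TIMP3 and NOS1, and falls were LRATD2, OPRD1, TENT5B, FREM1, RASL12, FAM222A, RNF157, LIMCH1, WWTR1, DNAJC1, IER3 and PHLDA1. Leaving out S9CC13_R6, S9CC47_R5 or S9CC47_R6 left 54, 83 and 46 of the 216 called. The replicate block kept 163 of them. In each fit that left out a culture, 121 of the 216 lost their call, some of them named below without that remark. Others lost it in only some of these fits, again at times without a remark.

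SOX9 RNA itself and several neural crest factors were higher at 3h. SOX9 T>C reads, normalized by size factors, were 9493, 9961 and 9914 at 0h and 18399, 15047 and 17069 at 3h, given here and below in the order S9CC13_R6, S9CC47_R5 and S9CC47_R6. Every 3h value lay above every 0h value, with a log2 fold change of 0.77 (SE 0.0809, adjusted p = 7.24e-18). dTAGV-1 acts on SOX9 protein, so the transcript is no check of the depletion. Of 44 neural crest factors tested, 8 rose and none fell, against 1.01% higher among all genes. The list median was 0.06, the median of all genes was -0.01, and with total-read size factors the list median was -0.00. Leaving out S9CC13_R6, S9CC47_R5 or S9CC47_R6 kept 3, 3 and 2 of the 8 called. With total-read size factors 5 of the 8 were called and 1 other member of the list was called lower. MSX1, a homeobox factor of the neural plate border and facial mesenchyme, had normalized T>C reads of 5925, 7291 and 6513 at 0h and 9921, 12426 and 9685 at 3h and rose by 0.70 (SE 0.0748, adjusted p = 1.36e-17). The groups did not overlap, and S9CC47_R5 was highest at both times. TWIST2, a mesenchymal basic helix-loop-helix factor, rose by 0.75 (adjusted p = 0.00759) and ZIC2, a zinc-finger factor, by 0.56 (adjusted p = 0.0266). Both lost their call in each fit that left out a culture.

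PAX7, LHX9 and TFAP2A, 3 of the 8, were not called with the culture as a replicate block. LHX9, a LIM homeobox factor, stood at 17.7, 87.1 and 37.3 at 0h and 29.1, 106 and 80.5 at 3h. Each culture was higher at 3h, but the groups overlapped, with S9CC13_R6 lowest at both times. Its log2 fold change was 0.83 (adjusted p = 0.0307), and with the block 0.67, adjusted p = 0.539. PAX7, a paired box factor, was at 0.46 (adjusted p = 0.0628), and with the block at 0.42, adjusted p = 0.313. TFAP2A, an AP-2 factor of early crest, was at 0.32 (adjusted p = 0.0737), and with the block at 0.26, adjusted p = 0.6. Markers of other cell types were called singly. ERBB3, a neuregulin receptor of glial precursors, fell by 3.28 on the log2 scale (adjusted p = 0.000466), from 45.8, 38.7 and 36.6 at 0h to 11.9, 3.46 and 3.5 at 3h, and lost its call in each fit that left out a culture. It was 1 of 4 glial and melanoblast markers at 1 CPM, and the list summed to 14.6 to 20.2 CPM of total reads at 0h and 9.88 to 14.3 at 3h. In these bulk samples, fewer cells of a type and less RNA in each cell cannot be told apart. LIN28A, an RNA-binding protein of early cells and 1 of the pluripotency markers, fell by 0.53 (adjusted p = 5.79e-07), and was not called without S9CC47_R6. The pluripotency list summed to 350.1 to 414.4 CPM at 0h and 303.6 to 349 at 3h, of which LIN28A alone made up a mean of 337.2 and 288.6 CPM. DPPA4, the other pluripotency marker at 1 CPM, had a mean of 36.22 CPM at 0h and 36.91 at 3h, and its T>C log2 fold change was -0.00, not called. The chondrocyte list, nearly all of it COL2A1 and COL9A1, summed to 339.9 to 372.3 CPM at 0h and 311.9 to 353.9 at 3h, and the neuron list, mostly TUBB3, to 90.18 to 97.86 and 90.83 to 108.5.

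Of all lists examined, the sterol genes held the most called members. Cholesterol is made from acetyl-CoA through mevalonate, farnesyl diphosphate, squalene and lanosterol by enzymes of the endoplasmic reticulum, and their genes are switched on together by SREBP factors when membrane sterol is low, while INSIG1 holds those factors back. Of 31 sterol genes tested, 19 rose and none fell, against 1.79% called among all genes, and 27 had a log2 fold change above 0. The list median was 0.68. Among 20 synthesis enzymes, 17 rose, with a median of 0.72. Leaving out S9CC13_R6, S9CC47_R5 or S9CC47_R6 left 12, 14 and 11 of the 19 called.

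The early steps, to squalene, rose at nearly every enzyme. HMGCS1, the HMG-CoA synthase (chromosome 5, 43287470 to 43313512, minus strand), had normalized T>C reads of 3194, 3397 and 3119 at 0h and 5828, 7230.1 and 6665 at 3h. The lowest 3h culture was well above the highest 0h culture, and the log2 fold change was 1.04 (SE 0.0828, adjusted p = 4.63e-32). ACAT2, which joins acetyl-CoA units, rose by 0.52, the mevalonate kinase MVK by 0.77, the decarboxylase MVD by 1.08 and the isomerase IDI1 by 1.04 (adjusted p from 3.31e-11 to 0.0532). MVD rested on few reads, 78.1, 44.7 and 29.7 at 0h and 176, 122 and 81.7 at 3h, and lost its call in each fit that left out a culture. FDPS, which makes farnesyl diphosphate, rose by 0.68 and lost its call in each fit that left out a culture. FDFT1, the squalene synthase, had 1550.3, 1670.0 and 1642 at 0h and 2657, 2959.8 and 2421 at 3h and rose by 0.70 (SE 0.0904, adjusted p = 5.51e-12). PMVK, the phosphomevalonate kinase between MVK and MVD, stood apart at -0.32 (adjusted p = 0.946).

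From squalene to cholesterol, the picture was the same. SQLE, the epoxidase, rose by 0.70 and LSS, which closes the ring to lanosterol, by 1.07, from 119.8, 157 and 117 at 0h to 219.6, 301 and 281 at 3h. CYP51A1, the lanosterol demethylase, had 288, 309.6 and 239 at 0h and 524, 587 and 641 at 3h and rose by 1.10 (SE 0.141, adjusted p = 3.26e-12). The largest 3h value was in S9CC47_R6, the culture that was lowest at 0h. MSMO1, a methylsterol oxidase, had 1157, 1365 and 1337 at 0h and 2299, 2496 and 2225 at 3h and rose by 0.87 (SE 0.093, adjusted p = 2.01e-17). DHCR7, the last reductase of the pathway (chromosome 11, 71428193 to 71452868, minus strand), had 350.1, 362 and 376 at 0h and 777, 944 and 777 at 3h and rose by 1.19 (SE 0.133, adjusted p = 4.11e-16). NSDHL and SC5D, which act between lanosterol and cholesterol, rose by 0.58 and 0.73. The isomerase EBP was called higher (0.49, adjusted p = 0.0635), though not with the block (0.47, adjusted p = 0.151). HSD17B7, a sterol reductase, was at 0.52 (adjusted p = 0.336) in T>C reads, and TM7SF2, which has a redundant reductase activity, was at -0.07, with overlapping groups.

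Sensors and transporters moved less evenly. INSIG1 (chromosome 7, 155297776 to 155310235, plus strand) had 803, 919 and 707 at 0h and 1949, 2167 and 1903 at 3h and rose by 1.29 (SE 0.114, adjusted p = 4.25e-26), the largest value of the list. STARD4, a carrier of cholesterol inside the cell, had 113, 133 and 75.4 at 0h and 197, 204 and 216 at 3h and rose by 0.98 (SE 0.211, adjusted p = 0.000454). The transcription factor genes SREBF1 and SREBF2 stood at 0.63 and 0.21 (adjusted p = 0.818 and 0.885). Some of these spans overlap a gene on the opposite strand, namely CYP51A1 with AKAP9, MVK with MMAB and ACAT2 with TCP1 and SOD2. Whether reads were assigned by strand was not stated.

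**Figure D2:**
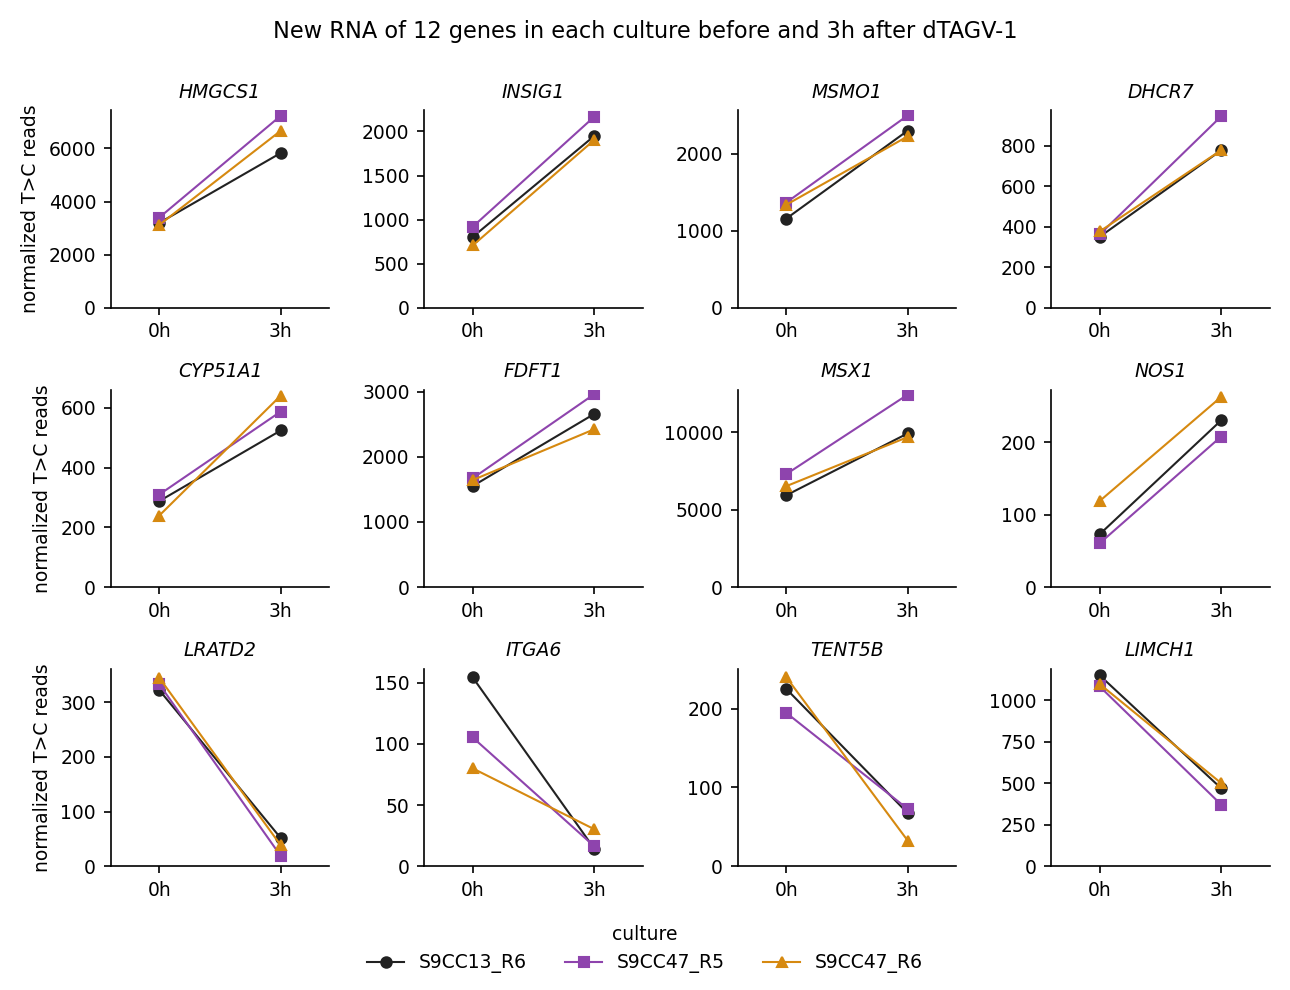
Normalized T>C reads of 12 named genes at 0h and 3h, each panel with its own axis from 0, with lines joining the libraries of 1 culture (circle S9CC13_R6, square S9CC47_R5, triangle S9CC47_R6). In the 8 genes of the upper panels all 3 lines rise, HMGCS1 from at most 3397 to at least 5828, and in the 4 genes of the bottom row all 3 lines fall, LRATD2 from at least 322 to at most 51.6.

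Promoter windows of the sterol genes that rose were read to show what stretches of sequence lie around the RefSeq start of genes that moved together. RefSeq windows of 250 bases before to 50 bases after the start (GRCh38.p14) were at hand for 14 of the 19, and for 9699 of all 12037 genes. The box CCAAT, on either strand (ATTGG when read on the other), stood in 12 of the 14 windows (85.7%), in 47 of 87 windows of all genes called higher (54%), in 31 of 78 called lower (39.7%) and in 3600 of all 9699 (37.1%). The 87 windows include the 14 of the sterol genes. Of the 6 called fatty acid genes, 5 had a window, and 2 of these held the box (40%), a share near that of all genes. The sterol element in the form TCACNCCAC, on either strand, stood in none of the 14, in 1 of 87, in none of 78 and in 108 of 9699 (1.11%). The SOX-type site AACAATG, on either strand, stood in none of the 14 and in 3 of 78 windows of genes called lower (3.85%), against 165 of 9699 (1.7%). CCAC and CCAAT share letters, but no form searched is part of another. The forms were picked after several had been counted, and a match is a description of these letters and not a bound site. The windows of CYP51A1 and IDI1, which also rose, held no box CCAAT and are not shown. The 45 bases around the box nearest to the start are shown for 6 of the genes whose values are given above, on the strand of the gene and 5′ to 3′, with the box in capitals. They come from chr5:43313488-43313532 (minus strand, HMGCS1), chr7:155297688-155297732 (plus, INSIG1), chr4:165327615-165327659 (plus, MSMO1), chr21:46228900-46228944 (minus, LSS), chr11:71448417-71448461 (minus, DHCR7) and chr5:111512641-111512685 (minus, STARD4), and the boxes lie 98, 168, 32, 148, 46 and 128 bases before the RefSeq start, in that order, a start that can differ from the end of the GENCODE span given above. By those GENCODE spans, the boxes of HMGCS1 and DHCR7 lie inside the gene.
HMGCS1: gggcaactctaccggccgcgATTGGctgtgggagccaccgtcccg
INSIG1: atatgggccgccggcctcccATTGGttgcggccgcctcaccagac
MSMO1: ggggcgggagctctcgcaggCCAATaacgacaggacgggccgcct
LSS: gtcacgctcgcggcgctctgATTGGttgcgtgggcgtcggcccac
DHCR7: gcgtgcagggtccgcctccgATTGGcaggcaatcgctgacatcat
STARD4: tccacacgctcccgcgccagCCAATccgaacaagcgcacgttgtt

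Fatty acid genes, which are switched on by the same SREBP family, followed with smaller steps. Of 16 tested, 6 rose and none fell (37.5% called, against 1.79% of all genes), and 14 had a log2 fold change above 0, with a median of 0.41. SCD, the desaturase that makes oleate, had normalized T>C reads of 1653, 2166 and 1822 at 0h and 2277, 3305 and 3311 at 3h and rose by 0.72 (SE 0.0923, adjusted p = 5.23e-12). ACLY, which supplies cytosolic acetyl-CoA, rose by 0.54 (SE 0.102, adjusted p = 2.13e-05), and FASN, the fatty acid synthase, by 0.51 (SE 0.106, adjusted p = 0.000268). LPIN1, a phosphatidate phosphatase, rose by 0.71, ELOVL6, an elongase, by 0.42, and FADS2, a desaturase, by 0.63. ACACA, the carboxylase between ACLY and FASN, stood at 0.25 (adjusted p = 0.89). None of the 6 kept its call without S9CC47_R6, 1 did without S9CC47_R5 and 3 did without S9CC13_R6, while all 6 kept it with the replicate block. FADS2 overlaps FADS1 on the opposite strand.

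Leaving aside called genes that averaged under 50 normalized T>C reads, the deepest falls were in genes of adhesion, signalling and other roles. LRATD2, named for its LRAT domain, went from 322, 333 and 344 at 0h to 51.6, 19.1 and 38.5 at 3h, a log2 fold change of -3.29 (SE 0.27, adjusted p = 2.56e-30). All 3 cultures fell to well below the lowest 0h value. ITGA6, the integrin alpha 6 chain that binds laminin (chromosome 2, 172427354 to 172506459, plus strand), went from 154, 105 and 80 at 0h to 14.6, 16.5 and 30.3 at 3h and fell by 2.46 (SE 0.396, adjusted p = 1.98e-07). It lost its call without S9CC13_R6, the culture that was highest at 0h. OPRD1, the delta opioid receptor, went from 123, 99.2 and 147 at 0h to 29.1, 25.1 and 21 at 3h and fell by 2.37. TENT5B, of a family of non-canonical poly(A) polymerases, went from 225, 195 and 239.9 at 0h to 67.5, 72.8 and 32.7 at 3h and fell by 2.07. FREM1, an extracellular matrix protein of the developing skin and face, went from 144, 181 and 143 at 0h to 25.1, 29.5 and 54.8 at 3h and fell by 2.01. In these 5 genes no 3h culture reached the lowest 0h culture.

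Other falls were less deep. RNF157, a ubiquitin ligase, had normalized T>C reads of 662, 608 and 587 at 0h and 321, 261 and 203 at 3h and changed by -1.31 (SE 0.148, adjusted p = 1.1e-15). LIMCH1, a protein of actin and myosin bundles (chromosome 4, 41359607 to 41700044, plus strand), had 1149, 1082 and 1097 at 0h and 469.7, 372 and 501 at 3h and changed by -1.30 (SE 0.117, adjusted p = 3.16e-25). Neither gene had overlapping groups. RASL12, a small GTPase of the RAS family, changed by -1.67, RHOJ, also a small GTPase, by -1.49, and the protocadherin PCDH1 by -1.50. TRNP1, a nuclear protein of neural progenitors, changed by -1.48 and FAM222A by -1.36. RHOJ lost its call without S9CC47_R6, TRNP1 without S9CC13_R6 or S9CC47_R6, and PCDH1 whichever culture was left out. WWTR1, the TAZ coactivator of the Hippo pathway, fell from 669, 608 and 664 at 0h to 351, 374 and 386 at 3h, a change of -0.79 (SE 0.118, adjusted p = 9.84e-09). It was the 1 gene called of 21 tested in the Hippo list (4.76%, against 1.79% of all genes). The fit gave RNF207 a value of -21.33, but of the 6 libraries only S9CC47_R5 at 0h held any of its T>C reads, 6.05 after normalization, so the value is no measure of size, and with the replicate block the gene was not called.

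Genes that report growth signals went both ways. Of 19 genes of the ERK feedback list, 2 rose and 2 fell (21.1% called), with a median of -0.06. Among all genes tested 1.79% were called. In the AP-1 and early gene lists below, the called share was 18.2% and 14.3%. DUSP4, a nuclear phosphatase of ERK, had 539, 516 and 568 at 0h and 728, 804 and 848 at 3h and rose by 0.57 (SE 0.105, adjusted p = 1.27e-05). DUSP6, a cytoplasmic phosphatase of ERK, had 2497, 2565 and 2494 at 0h and 1851, 1709 and 2311 at 3h and changed by -0.32 (SE 0.0872, adjusted p = 0.0227). The inhibitor SPRY4 changed by -0.53 (SE 0.141, adjusted p = 0.0151). Neither was called in any fit that left out a culture. DUSP7 was called higher (0.64, adjusted p = 8.36e-05) but had 244, 499 and 344 at 0h and 216, 551 and 784 at 3h, and with the replicate block it stood at 0.38, adjusted p = 0.999. Without S9CC47_R6, its highest 3h culture, it was at -0.0226. Of 11 AP-1 genes, JUN and JUNB rose, by 0.71 and 1.23 (adjusted p = 0.0129 and 0.0139), and none fell. The JUN call was lost with no covariates, with only the 6 samples and in each fit that left out a culture. JUNB went from 25, 50.8 and 25.1 at 0h to 52.9, 88.4 and 80.5 at 3h, lost its call whichever culture was left out, and overlaps HOOK2 on the opposite strand. Of 21 early genes, IER3 and PHLDA1 fell and PTGS2, the inducible cyclooxygenase, rose by 0.64 (adjusted p = 0.00333). The PTGS2 call was lost in each fit that left out a culture. IER3, a stress-regulated survival factor, had 1844, 1762 and 2008 at 0h and 1093, 1229 and 834 at 3h and fell by 0.90 (adjusted p = 1.09e-13). PHLDA1, a pleckstrin homology domain protein, had 834, 744 and 795 at 0h and 423, 354 and 564 at 3h and fell by 0.80 (adjusted p = 5.2e-09). EGR1, the classical early gene of serum, was at -0.03 (adjusted p = 0.998), with overlapping groups.

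Ligands and inhibitors of the morphogen pathways changed singly. BMP4, a bone morphogenetic protein that patterns the face, had 826, 611 and 913 at 0h and 1651, 1446 and 1039 at 3h and rose by 0.70 (SE 0.117, adjusted p = 7.41e-07). BMP7 and GDF11, related ligands, changed by -0.44 and -0.65 (adjusted p = 0.00798 and 0.000187), and TGFBI, a TGF-beta induced matrix protein, went from 891, 955 and 893 at 0h to 549, 631 and 551 at 3h, a change of -0.67 (SE 0.106, adjusted p = 1.03e-07). These were 1 rise and 3 falls among 41 genes of that list (9.76% called, against 1.79% of all genes), whose median was -0.00. BMP7 lost its call in each fit that left out a culture, GDF11 without S9CC13_R6 or S9CC47_R6, and TGFBI without S9CC47_R6. In the WNT list of 38, 1 gene rose and 5 fell (15.8% called), with a median of 0.09. NKD1, a feedback inhibitor, rose by 0.59 (adjusted p = 0.00153). FRZB, a secreted inhibitor of WNT in cartilage, had 798, 854 and 825 at 0h and 456, 550.0 and 593 at 3h and fell by 0.59 (adjusted p = 1.18e-05). SFRP2, of the same secreted family, was at -0.57, the receptors ROR1 and ROR2 at -0.44 and -0.30, and TNFRSF19, listed with targets and inhibitors, at -0.49 (adjusted p from 0.0634 to 0.0977). ROR2 and TNFRSF19 were not called with the replicate block (-0.28, adjusted p = 0.428; -0.53, adjusted p = 0.106), and without S9CC13_R6 or S9CC47_R5 only 1 of the 6 WNT genes stayed called.

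FGF18, a ligand for skeletal growth, had 519, 733 and 583 at 0h and 898, 1254 and 935 at 3h and rose by 0.75 (SE 0.104, adjusted p = 2.07e-10), alone among 13 FGF genes. Among all genes tested 1.79% were called. The share was 7.69% in the FGF list, 11.1% in the Notch list, 25% in the retinoic acid list and 0% in the hedgehog list. It was 18.2% in the nitric oxide and cGMP list and 16.7% in both the CEBP and IGF lists. The shares of lists this short rest on few genes. In the Notch list of 18, the ligand JAG1 rose by 0.64 (adjusted p = 0.0448). That call was lost with total-read size factors, with only the 6 samples and in each fit that left out a culture. HES1, a repressor and Notch target, had 103, 144 and 145 at 0h and 151, 153 and 315 at 3h, a log2 fold change of 0.73 (adjusted p = 0.0114), and with the block it stood at 0.57, adjusted p = 0.98. Its highest value by far was S9CC47_R6 at 3h, and it lost its call without that culture or without S9CC13_R6. Of 12 retinoic acid genes, DHRS3, a retinal reductase, fell by 1.44 (adjusted p = 0.00958) and lost its call in each fit that left out a culture. CRABP2, a retinoic acid carrier, and the receptor RARA were called higher, at 0.33 and 0.69, and not called with the block (0.23, adjusted p = 0.968; 0.64, adjusted p = 0.186). Without S9CC47_R6, CRABP2 was at -0.0105. DESeq2 and edgeR called 0 of 11 hedgehog genes in T>C reads, where 1 had an unadjusted p under 0.05, with GLI3 at 0.05 and CDON at 0.24. NOS1, the neuronal nitric oxide synthase (chromosome 12, 117208142 to 117452170, minus strand), had 72.9, 60.5 and 119 at 0h and 230.2, 208 and 263 at 3h and rose by 1.50 (SE 0.229, adjusted p = 2.16e-08), the largest rise by the naming rule. PDE5A, which breaks down cGMP, rose by 0.40 (adjusted p = 0.0931), and these were the called members among 11 nitric oxide and cGMP genes. CEBPD, a bZIP factor, went from 81.3, 85.9 and 67 at 0h to 169, 165 and 158 at 3h and rose by 1.06 (SE 0.203, adjusted p = 3.57e-05), the 1 called member of 6 in its family. It lost its call without S9CC13_R6 or S9CC47_R6. The IGF-binding proteins IGFBP4 and IGFBP5 were called among 12 IGF genes, at 0.46 and 1.19 (adjusted p = 0.0363 and 0.098), IGFBP5 not with the block (1.18, adjusted p = 0.12) and both not with total-read size factors. PLA2G3, a secreted phospholipase, rose by 1.14 (adjusted p = 0.00742) from 49, 38.7 and 53.3 at 0h to 152, 107 and 91 at 3h. It lost its call in each fit that left out a culture.

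Of 16 genes of the cartilage list, 1, SOX5, was called (6.25%, against 1.79% of all genes), and 6 had a log2 fold change above 0, with a median of -0.15. SOX5, the partner factor of SOX9, had 297, 225 and 255 at 0h and 143, 134 and 152 at 3h and fell by 0.85 (SE 0.181, adjusted p = 0.000402). It lost its call without S9CC13_R6 or S9CC47_R6. COL2A1, the fibrillar collagen of cartilage, had 806, 756 and 765 at 0h and 640.3, 569 and 627 at 3h, below 0h in each culture, with a change of -0.35 (SE 0.125, adjusted p = 0.215) that was not called, and COL11A1 was at -0.06 (adjusted p = 0.998). Among 21 other collagens, COL6A1, a chain of the beaded filament collagen, and COL26A1 rose, by 0.80 and 0.46 (adjusted p = 0.000187 and 0.0043). COL6A1 lost its call without S9CC13_R6 or S9CC47_R6. COL26A1 lost its call without S9CC13_R6 or S9CC47_R5, with total-read size factors, with no surrogate variable and with no covariates. Of 23 integrins, laminins and nidogens, ITGA6 and NID1, a linker of laminin to collagen in basement membranes, fell. NID1 had 308, 261 and 275 at 0h and 151, 136 and 161 at 3h and changed by -0.93 (SE 0.178, adjusted p = 3.83e-05). Its call was lost without S9CC13_R6 or S9CC47_R6. TIMP3, an inhibitor of metalloproteases that overlaps SYN3 on the opposite strand, had 3141, 2879 and 2787 at 0h and 5251, 4669 and 4672 at 3h and rose by 0.70 (SE 0.086, adjusted p = 3.73e-13), the 1 called gene of 21 proteases and inhibitors. PCDH1 was the 1 called gene of 18 cadherins, and 0 of 48 guidance genes were called by DESeq2, where 7 had an unadjusted p under 0.05 and edgeR called 1.

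Large families of basic cell function held few calls, as did all genes tested, of which 1.79% were called. At that share, a count of 0 in a list of 80 genes or fewer is no result about the family. None of 80 cytosolic ribosomal protein genes, 78 mitochondrial ribosomal protein genes, 79 respiratory chain genes, 54 initiation factors or 32 proteasome subunits was called by DESeq2, and the medians of these lists lay between -0.07 and 0.01. An unadjusted p under 0.05 was reached by 4, 2, 2, 2 and 0 of them, and edgeR called 1 cytosolic ribosomal protein gene and none of the others. Their values were tight where reads were many: proteasome subunits ran from -0.19 to 0.20 and splicing factors from -0.22 to 0.11, the latter with 0 of 38 called by either tool and 1 at an unadjusted p under 0.05. Mitosis genes had 0 of 34 called by either tool and 2 at an unadjusted p under 0.05 (median -0.04, range -0.22 to 0.23), and of 40 replication genes CCND2, a G1 cyclin, was called (0.31, adjusted p = 0.00302), though not with the block (0.27, adjusted p = 0.269). In the stress lists, DESeq2 called 0 of 26 p53 targets (median -0.07), 0 of 19 heat shock genes (-0.06) and 0 of 20 NRF2 genes (0.11). Against 1.79% of all genes, a count of 0 in lists this short is no result about stress programs. In these 3 lists 1, 2 and 3 genes had an unadjusted p under 0.05, and edgeR called 1 NRF2 gene and none of the others. Of 35 ATF4 and ER stress genes, HERPUD1 was called (0.59, adjusted p = 0.0699) and not with the block (0.53, adjusted p = 0.291). Of 32 hypoxia and glycolysis genes, the hexokinase HK1 fell by 0.65 (adjusted p = 0.00336). Of 450 ZNF genes, ZNF608 was called (-0.43, adjusted p = 0.000651). Both HK1 and ZNF608 lost their call in each fit that left out a culture. Families with scattered single calls were the forkhead genes (FOXD2, -0.78, of 18), kinesins (KIF3A, -0.75, of 32), solute carriers (SLC8A3, 0.72, of 183) and RAB genes (RAB40C, 0.51, of 49). Their called shares were 5.56%, 3.13%, 0.546% and 2.04%, in that order. A single call in a list of 18, 32 or 49 genes is no result about that family. SLC8A3 and RAB40C lost their call in each fit that left out a culture, FOXD2 and KIF3A without S9CC13_R6 or S9CC47_R6.

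**Figure D3:**
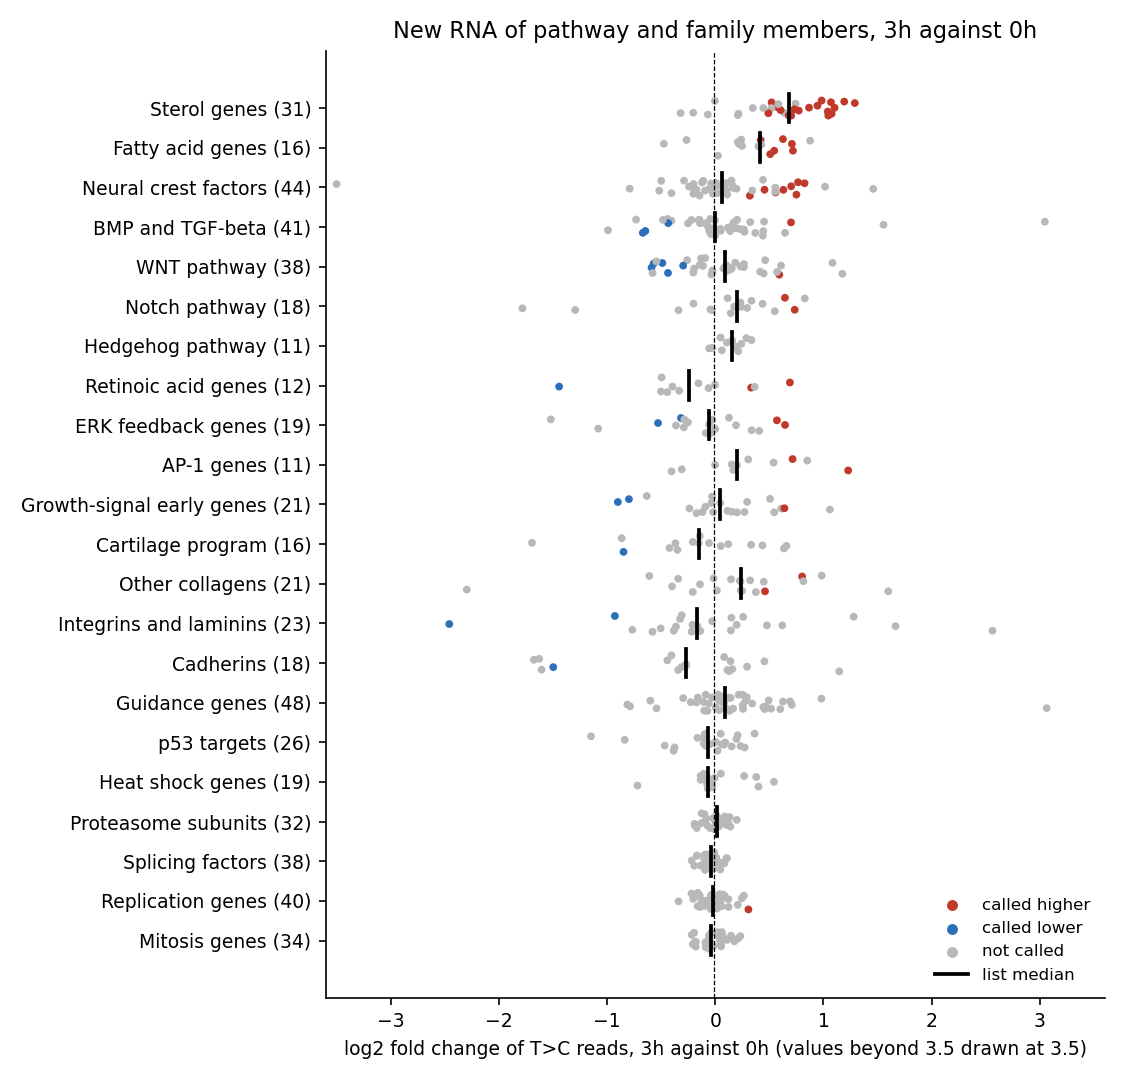
Each point is the log2 fold change of T>C reads, 3h against 0h, of 1 gene of a list (rows, with the number tested), red where called higher, blue where called lower and grey where not called, with a black bar at the list median and a dashed line at the median of all genes; vertical scatter has no meaning and values beyond 3.5 are drawn at 3.5. The sterol list stands furthest to the right, with 19 red points and a median of 0.68, while proteasome, splicing and mitosis genes sit close to 0 with none called.

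Older RNA was measured in the same libraries as reads without a conversion. Of 11529 genes tested there, 127 were called (1.1%), 80 higher (0.694%) and 47 lower (0.408%), and 865 had an unadjusted p under 0.05. Without S9CC47_R6 the count was 129, of which 39 were among the 127, and without S9CC13_R6 it was 28. The balance of directions turned with cultures left out, to 45 higher and 84 lower without S9CC47_R6 and 37 higher and 52 lower without S9CC47_R5. New and older reads come from the same samples, so their values are given side by side and the difference itself was tested for each gene. That test, the interaction of kind of read with time in 1 DESeq2 fit, called 38 of 11361 genes (0.334%), with T>C reads above unconverted reads in 30 and below in 8. An unadjusted p under 0.05 was reached by 479 genes. Of the 38, 33 were also called in T>C reads. With 1 size factor per library for both kinds of read the test called 19 genes, 9 above and 10 below, and without S9CC47_R5 it called 8.

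The difference was called for 9 of 31 sterol genes and 3 of 16 fatty acid genes, and in each of these 12 T>C reads had risen by more than unconverted reads. Without S9CC47_R5, 3 of the 9 sterol genes and 2 of the 3 fatty acid genes were called, and with 1 size factor per library 5 and 2. DHCR7 unconverted reads were 1138, 1329 and 1244 at 0h and 1348, 1637 and 1592 at 3h. The groups stood just apart, with a log2 fold change of 0.33 (SE 0.107, adjusted p = 0.164), not called, against 1.19 in T>C reads. The difference was 0.89 (SE 0.133, adjusted p = 7.53e-08), and the T>C share of DHCR7 went from 22.6%, 22.8% and 23.5% at 0h to 30.8%, 35.1% and 33% at 3h. LSS stood at 0.18 in unconverted and 1.07 in T>C reads, a difference of 0.88 (SE 0.179, adjusted p = 0.00065). CYP51A1 differed by 0.79, FDPS by 0.75, ACAT2 by 0.64, EBP by 0.53, FDFT1 by 0.51 and HMGCS1 by 0.46 (adjusted p from 1.13e-05 to 0.0507). SCD, ACLY and FASN differed by 0.63, 0.61 and 0.58, with unconverted changes of 0.09, -0.03 and -0.04, none of them called.

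Other sterol genes rose in both kinds of read, without a called difference. MSMO1 unconverted reads were 517, 492 and 623 at 0h and 1276, 1047 and 1092 at 3h and rose by 1.03 (SE 0.111, adjusted p = 2.76e-17), with a difference of -0.20 that was not called. INSIG1 rose by 1.06, IDI1 by 0.94, STARD4 by 0.90 and MVK by 0.83 in unconverted reads (adjusted p at most 2.9e-05). In all, 12 of 31 sterol genes rose in unconverted reads (7 without S9CC13_R6), against 0.694% of all genes, and the list median there was 0.24. At 0h, T>C reads were from 4.83% (FDPS) to 32.8% (HMGCS1) of the reads in the 9 sterol genes whose difference was called. Among the others that rose in T>C reads, they were 9.21% in MVD, 26.1% in SQLE, 27.8% in NSDHL, 35.1% in MVK, 37% in SC5D, 42.6% in STARD4, 48.4% in IDI1, 59.6% in INSIG1 and 70.6% in MSMO1, so the ranges overlapped.

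**Figure D4:**
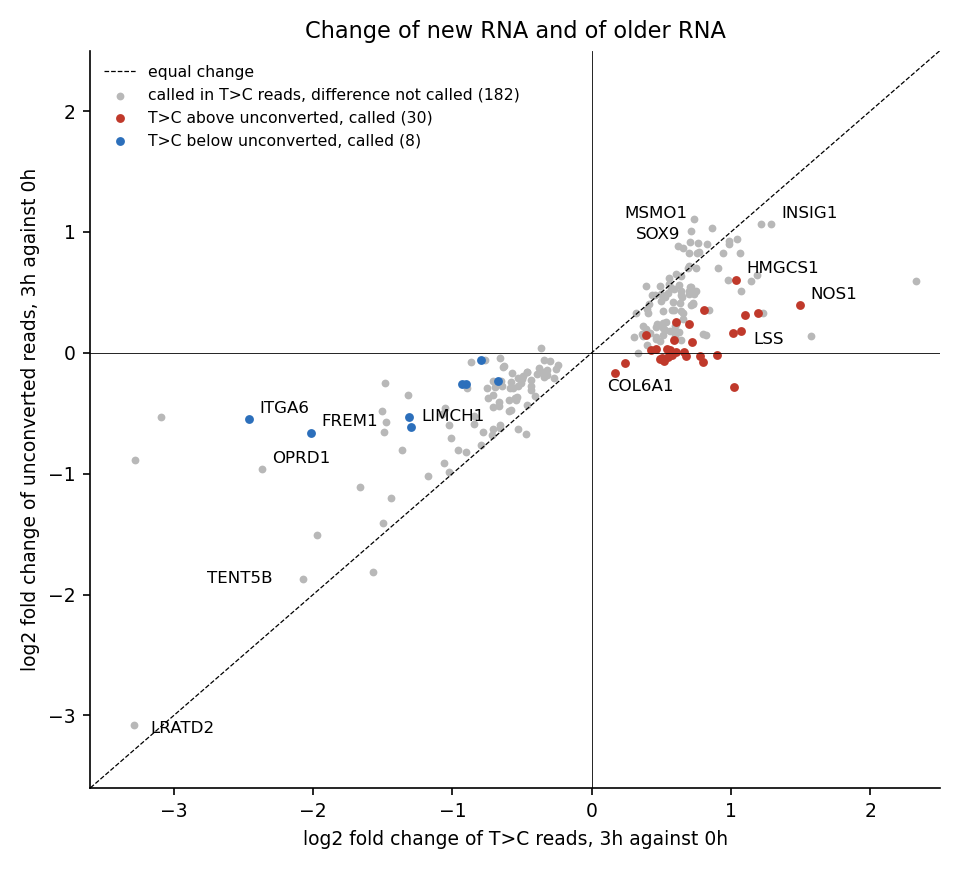
Each point is a gene called in T>C reads or in the difference test, with its log2 fold change, 3h against 0h, of T>C reads on the x axis and of unconverted reads on the y axis; the dashed line marks equal change, red and blue mark the 30 and 8 genes whose difference was called, RNF207 has no unconverted value, and 1 called gene beyond 3.6 in size lies outside the axes. Red points such as LSS (1.07 and 0.18) lie near 0 on the y axis, while SOX9, MSMO1, TENT5B and LRATD2 lie near the line.

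Outside lipid synthesis, the difference was called for 2 of 20 other collagens, with T>C reads above, and 2 of 20 integrins, laminins and nidogens, with T>C reads below, against 0.334% of all genes. NOS1 rose by 1.50 in T>C reads and stood at 0.40 in unconverted reads (adjusted p = 0.354), a difference of 1.121 (SE 0.238, adjusted p = 0.00161). FLNC, an actin crosslinker of muscle, rose by 0.90 against -0.02 in unconverted reads, and COL6A1 by 0.80 against -0.08, with a difference of 0.93 (SE 0.14, adjusted p = 8.83e-08). COL6A1 unconverted reads were 3424, 4173 and 3398 at 0h and 3563, 3856 and 3147 at 3h, with overlapping groups, and the part of its reads with a conversion went from 4.14% ± 0.478 at 0h to 6.78% ± 0.402 at 3h (SD over 3 cultures). COL26A1 differed by 0.51 (SE 0.123, adjusted p = 0.0171), and was not called without S9CC47_R5 or with 1 size factor per library. ERG28, a scaffold of sterol enzymes that stood outside the sterol list, differed by 0.84 (SE 0.215, adjusted p = 0.0363). Among the 8 genes with T>C below unconverted reads, ITGA6 differed by -1.85 (SE 0.428, adjusted p = 0.00775), NID1 by -0.66 (SE 0.152, adjusted p = 0.0064), FREM1 by -1.39 (SE 0.34, adjusted p = 0.0198), RNF157 by -0.75 (SE 0.152, adjusted p = 0.00065), LIMCH1 by -0.71 (SE 0.119, adjusted p = 5.36e-06), WWTR1 by -0.74 (SE 0.158, adjusted p = 0.0019) and DNAJC1, a chaperone of the endoplasmic reticulum, by -0.68 (SE 0.139, adjusted p = 0.000827). In unconverted reads LIMCH1 and RNF157 had fallen as well (-0.61 and -0.53), while ITGA6, FREM1, WWTR1 and DNAJC1 were not called (-0.55, -0.66, -0.06 and -0.26). The NID1 difference was not called without S9CC13_R6 or S9CC47_R5. The NOS1, LSS, FLNC and ERG28 differences were not called with 1 size factor per library, and those of DHCR7, FDPS, SCD, COL6A1 and LIMCH1 were called under each of the 8 other settings run gene by gene for that test.

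At the other end, some genes fell or rose steeply in unconverted reads too. LRATD2 unconverted reads were 170.1, 216 and 221 at 0h and 30.7, 20.3 and 20 at 3h, a change of -3.08 (SE 0.314, adjusted p = 4.23e-19), and TENT5B changed by -1.87 (SE 0.296, adjusted p = 1.61e-07). Both groups stayed apart in each gene. ANGPTL1, a secreted angiopoietin-like protein, changed by -1.81 in unconverted and -1.57 in T>C reads, ARSI, a sulfatase, by -1.51 and -1.97, and PCDH1 by -1.41 and -1.50. SOX9 rose by 0.91 (SE 0.0847, adjusted p = 7.07e-23) in unconverted reads, and its T>C share was 59.5% ± 2.77 at 0h and 54.3% ± 3.76 at 3h. GLI1, the target factor of hedgehog signalling, rose in unconverted reads by 1.18 (SE 0.325, adjusted p = 0.0327) but had normalized T>C reads of only 25, 10.9 and 22.1 at 0h and 15.9, 23.4 and 30.3 at 3h, which overlapped, a T>C change of 0.29 that was not called. With the replicate block its unconverted change was 1.14 and lost the call (adjusted p = 0.112). MN1, a transcriptional coregulator, rose in unconverted reads by 1.08 (SE 0.276, adjusted p = 0.0142), with normalized T>C reads of 108, 90.7 and 57.9 at 0h and 123, 124 and 147 at 3h, which did not overlap but were not called (0.64, adjusted p = 0.255). Unconverted reads of HES1 rose by 1.11 (SE 0.19, adjusted p = 2.84e-06) and those of JUN by 1.01 (SE 0.192, adjusted p = 5.6e-05). Among these unconverted changes, the calls of GLI1, MN1 and ARSI were lost in each fit that left out a culture, those of ANGPTL1 and HES1 without S9CC13_R6 or S9CC47_R6, that of PCDH1 without S9CC13_R6 or S9CC47_R5, and that of JUN without S9CC13_R6.

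Calls followed the reads behind a gene. With genes cut into 4 bins of equal number by mean normalized T>C reads, from lowest to highest, 0.366%, 0.864%, 2.23% and 3.72% of genes were called. In the lowest bin, 9 of 11 called genes were lower, and in the highest 70 of 112 were higher. By 4 bins of gene span in the annotation, the called share ran 1.73%, 1.96%, 1.43% and 2.06%. The split did vary: the shortest bin held 34 genes called higher and 18 lower, and the longest, with a median span of 153350 bases, held 23 higher and 39 lower. By 4 bins of a gene's T>C share in the 24h libraries, which enter neither group mean, 1.23%, 1.46%, 1.86% and 2.62% of genes were called in T>C reads. In the same order 9, 18, 36 and 64 were called in unconverted reads, and 25, 8, 4 and 1 in the difference test. The T>C share of a gene also depends on how many T bases its reads cover, which was not corrected for.

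**Figure D5:**
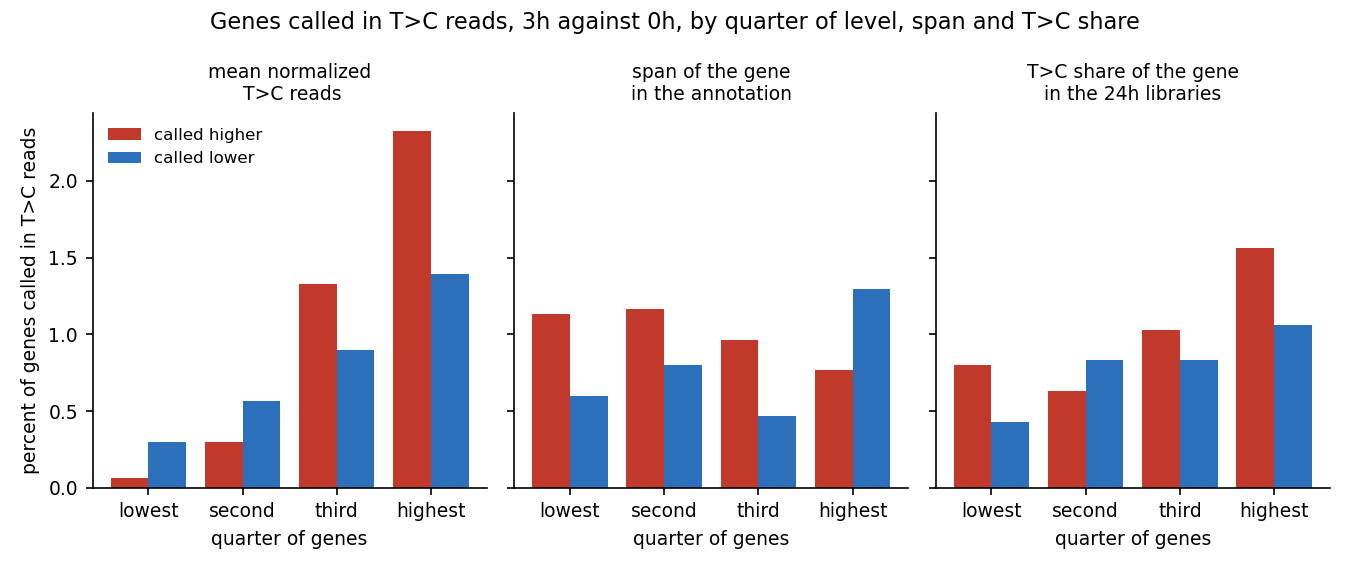
Bars give the percent of genes called higher (red) and lower (blue) in T>C reads, 3h against 0h, in each of 4 equal bins of the genes tested that have the value, by mean normalized T>C reads, by span of the gene and by its T>C share in the 24h libraries. The share called rises with reads, from 0.366% to 3.72% in all, and in the longest genes the blue bar (1.30%) stands above the red (0.764%).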

How the data were processed

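Per the study's methods, the authors sequenced the 3′ ends of RNA (QuantSeq forward libraries), trimmed read 1, and counted reads per gene with slamdunk 0.4.3, which also tallies reads with T>C conversions. The genome build in the submitters' processing notes is hg38, and the strand setting and counted regions are not given in the sources used here. The deposited values are whole-number counts, as 1 table of total reads and 1 of T>C reads, with 9 value columns each. Unconverted counts were computed as total minus T>C. PCR reads without molecular identifiers are not independent molecules, and replicates are cultures of 2 clones and 2 batches, so p-values measure the spread among these.

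Symbols were matched to GENCODE v44 (18451), to RefSeq symbols (11) or synonyms (390), or to neither (118). Protein-coding genes that reached 1 CPM in 3 or more libraries were tested in R 4.3.3 with DESeq2 1.42.0 (Wald test, all 9 samples, batch, 1 surrogate variable from sva 3.50.0 and time; Benjamini-Hochberg adjusted p under 0.1, no independent filtering), after the study's methods. The difference between kinds of read was tested as an interaction, with a term per sample and size factors per kind. edgeR 4.0.16 with limma 3.58.1 was an alternative, beside other factors, filters, blocks and left-out cultures.

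Members, gene lists and motifs were chosen with earlier results of these data known. Named genes were SOX9, the 12 largest rises and falls among called T>C genes whose mean reached 50 normalized reads with 1 direction in 3 of 3 cultures, the 5 largest of each in unconverted reads, the 6 largest differences each way, up to 6 called members per list, and the genes whose response the study describes; other members are given to complete a pathway and were chosen after their values were seen. Some genes that the rule names are not reported here. Cultures pair the samples by the clone and batch in their titles, and deviations of paired libraries correlated at a mean of 0.131 (0.0169 to 0.286, 9 pairs) in T>C and 0.243 (-0.0429 to 0.532) in unconverted reads. Tested on simulated data with 100 genes changed at each size, the T>C fit over 12037 genes called 76% of those at a log2 change of 1 and 21% of those at 0.5, with 21 false calls. The unconverted fit over 11529 genes called 90% and 35% with 35 false calls, and the difference fit over 11361 genes 95% and 63% with 0 false calls. Changed genes were drawn only from those with a mean of at least 50 reads, and no batch, clone or culture effect was simulated. For the difference fit, each gene kept 1 T>C share in all libraries apart from the set change, with binomial sampling alone. The real libraries vary more, so these rates do not give the sensitivity or false calls in the data.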

Additional observations from a re-analysis of the deposited data

How the results depend on the processing

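Against 216 genes called in T>C reads, DESeq2 called 134 with no covariates, 135 with only the 6 samples of 0h and 3h, and 55 to 90 with 1 culture left out. Against 127 in unconverted reads, the counts were 70 with no surrogate variable, 60 with no covariates, 74 with only the 6 samples, and 28 to 129 with 1 culture left out, the fewest without S9CC13_R6. The difference test called 19 with 1 size factor per library for both kinds of read and 8 to 41 with 1 culture left out, against 38. With culture as a replicate block, 172 T>C genes (163 among the 216), 88 unconverted genes (86 among the 127) and 47 differences (38 among the 38) were called, and blocked values stand beside the named genes that lost their call. edgeR called 288, 131 and 35. Without replicate 3 (S9CC47_R6), DUSP7 stood at -0.0226 and CRABP2 at -0.0105 (log2), with the sign turned, and their highest values with a culture left out were 0.63 and 0.42, without replicate 1. The cause of these changes was not tested. Total counts under the other settings lay within 1.5 times the values reported, and with no surrogate variable 61 T>C genes were lower and 84 higher, against 95 and 121. Over named genes in T>C reads, 1261 values kept direction and side of the threshold, 272 kept direction without a call, 5 gained one and 2 turned. In the lowest of 4 bins of T>C reads 0.366% of genes were called. Whether these genes change less or are detected less was not tested.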

Other observations

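Of the 34 genes called in T>C reads under each of the 11 other settings, 7 stand in no pathway list and have not been described above; they were chosen after their values were seen. S1PR3, a receptor for sphingosine 1-phosphate, had normalized T>C reads of 287, 365 and 233 at 0h and 673, 539 and 483 at 3h (cultures S9CC13_R6, S9CC47_R5, S9CC47_R6) and a log2 fold change of 0.91 (SE 0.151, adjusted p = 5.81e-07) by DESeq2. PLPP3, a phosphatase that breaks down such lipid signals, had 2216, 2237 and 1733 at 0h and 1233, 1077 and 988 at 3h and a log2 fold change of -0.96 (SE 0.188, adjusted p = 7.05e-05). Neither gene had overlapping groups. TMEM97, a sterol-binding membrane protein that was outside the sterol list, had 3819, 3547 and 4051 at 0h and 7181, 6064 and 5113 at 3h and a log2 fold change of 0.61 (SE 0.075, adjusted p = 3.73e-13). ENC1, an actin-binding kelch protein, was at -0.71, CXXC5, a zinc-finger protein, at 0.61, CEP68, a centrosome linker protein, at -1.03 and FAM126A, of a lipid kinase complex at the plasma membrane, at 0.81.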
